A study of Homo sapiens with 4 samples.

Results

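The matrix metalloproteinase cluster of chromosome 11 lies beside YAP1, and its 9 genes were described here in HCC1954 cells with and without a hairpin against ZDHHC15. The 9 genes, MMP7, MMP20, MMP27, MMP8, MMP10, MMP1, MMP3, MMP12 and MMP13, were taken by symbol from a table of 58735 genes. They were selected on the shZDHHC15 against shCON differences of these same samples, so their fold changes are given as a description with no test.

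The cell line HCC1954 was established from a human breast carcinoma. Its RNA was sequenced in 4 samples, 2 with a scrambled control hairpin (shCON 1 and 2) and 2 with a hairpin against the palmitoyl transferase gene ZDHHC15 (shZDHHC15 1 and 2), all grown in RPMI-1640 with fetal bovine serum. Both hairpins were carried by a GIPZ lentiviral vector. The design text calls the knockdown stable, the treatment text describes a transient lipofection with harvest at 36 h, and the methods say that monoclonal cultures were screened by western blot without saying which clones these samples came from. Whether the 2 shZDHHC15 samples carried the same hairpin sequence is not given in the sources used here. ZDHHC15 itself received 17617 and 15716 counts in shCON and 0 in each shZDHHC15 sample, where a count of 0 allows up to 3 counts. Whether the hairpin alone accounts for a count of 0 was not tested, and shZDHHC15 names the samples by their label.

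The samples held between 17560982 and 19118704 counts in all, so that 3 counts corresponded to between 0.157 and 0.171 counts per 1000000 (CPM). The samples of a group differed by more than counting error, with a chi-square per degree of freedom of 8.32 in shCON and 6.79 in shZDHHC15. Nothing in the labels says that the samples came from separate cultures, so the p-values given for other genes measure the spread between these samples, which may be technical. With 2 samples against 2, an exact permutation test of a single value cannot go below p = 0.333.

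Matrix metalloproteinases are secreted or membrane-bound endopeptidases that cut proteins of the extracellular matrix and of the cell surface. They are made as inactive zymogens, in which a cysteine of the propeptide occupies the catalytic zinc until other proteases cut the propeptide away, and tissue inhibitors of metalloproteinases (TIMPs) block the active enzymes. The genes of this cluster arose by tandem duplication and differ in substrate: MMP1, MMP8 and MMP13 are collagenases that cleave the triple helix of fibrillar collagen, MMP3 and MMP10 are stromelysins, MMP7 is a matrilysin without the hemopexin domain of the others, MMP12 is the elastase of macrophages and MMP20 is the enamelysin of developing teeth. In breast carcinoma most of these enzymes are known from stromal and inflammatory cells, while MMP7 is typically made by epithelial cells.

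The cluster spanned 435.227 kb, from 102520508 to 102955734 on chromosome 11 of GRCh38, with all 9 genes on the minus strand. YAP1, which encodes the coactivator restrained by the Hippo pathway, lay on the plus strand between 102110461 and 102233423. The lowest coordinate of MMP7 lay 287.085 kb beyond the end of YAP1, and that of MMP13, the farthest member, 709.572 kb beyond it. On the minus strand the lowest coordinate is where a gene ends. By lowest coordinate the order was MMP7 (ENSG00000137673, 102520508 to 102530753), MMP20 (ENSG00000137674, 102576835 to 102625332), MMP27 (ENSG00000137675, 102691487 to 102705806) and MMP8 (ENSG00000118113, 102711795 to 102727050). These were followed by MMP10 (ENSG00000166670, 102770503 to 102780628), MMP1 (ENSG00000196611, 102789920 to 102798160), MMP3 (ENSG00000149968, 102835801 to 102843803), MMP12 (ENSG00000262406, 102862736 to 102875034) and MMP13 (ENSG00000137745, 102942995 to 102955734).

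The catalytic zinc site is shown for each gene, because it is the stretch that makes these genes 1 family and because it shows how far their reads can be told apart. Each line gives 33 coding bases of the minus strand, read 5′ to 3′ from the GENCODE 29 transcript on GRCh38 and lying in exon 5 of every transcript. Capitals mark the codons of the 3 histidines that hold the zinc and of the catalytic glutamate.
MMP7, chr11:102523343-102523375: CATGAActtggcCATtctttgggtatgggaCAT
MMP20, chr11:102609040-102609072: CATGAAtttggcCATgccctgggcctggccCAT
MMP27, chr11:102696777-102696809: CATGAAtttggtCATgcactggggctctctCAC
MMP8, chr11:102718517-102718549: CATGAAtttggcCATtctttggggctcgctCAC
MMP10, chr11:102776718-102776750: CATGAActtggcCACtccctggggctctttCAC
MMP1, chr11:102795549-102795581: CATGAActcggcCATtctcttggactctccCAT
MMP3, chr11:102840535-102840567: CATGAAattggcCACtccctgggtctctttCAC
MMP12, chr11:102868011-102868043: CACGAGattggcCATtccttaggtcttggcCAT
MMP13, chr11:102952115-102952147: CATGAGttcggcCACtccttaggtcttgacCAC

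Among these 33 bases MMP12 differed from MMP13 at 6 positions, and the other members differed from it at between 9 and 13. The cysteine switch of the propeptide was found in the coding sequence of all 9 genes. The MMP7 coding sequence held 267 codons, against between 467 and 513 in the other members. Over 36 aligned pairs of coding sequences, MMP3 and MMP10 were 85.2% identical, and the other 35 pairs were between 60.2% and 68.9% identical. Identity was taken over aligned bases with gaps left out. The pairs with the shorter MMP7 held between 650 and 792 gap bases, so their values cover only part of the other sequence.

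MMP3 and MMP10 also shared an unbroken run of 96 identical exonic bases, so their reads could have been exchanged and both values are uncertain. No other pair of members shared a run of 40 bases or more. MMP13 shared runs of 40 to 48 bases with 10 genes outside the cluster. On the opposite strand the pseudogene WTAPP1 covered 150 exonic bases of MMP1 and 32 of MMP3, and it received 6 counts over the 4 samples. The antisense gene AP000851.1 covered 206 exonic bases of MMP20 and received 5 counts. Use of the strand in counting is not given in the sources used here, so reads of such overlaps cannot be told apart.

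The promoters of MMP7 and MMP10 are shown because these are the measured members, among the 5 with an entry in the RefSeq promoter table of GRCh38.p14, that passed the filter on low counts. Each line gives the 250 bases before the annotated start, on the minus strand and read 5′ to 3′. Capitals mark the motif letters described in the next paragraph.
MMP7, chr11:102530748-102530997: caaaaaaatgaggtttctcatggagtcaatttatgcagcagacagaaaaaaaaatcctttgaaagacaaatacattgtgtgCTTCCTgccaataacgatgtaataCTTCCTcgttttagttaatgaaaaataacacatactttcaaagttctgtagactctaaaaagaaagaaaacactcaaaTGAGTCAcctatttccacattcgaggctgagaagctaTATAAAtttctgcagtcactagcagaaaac
MMP10, chr11:102780629-102780878: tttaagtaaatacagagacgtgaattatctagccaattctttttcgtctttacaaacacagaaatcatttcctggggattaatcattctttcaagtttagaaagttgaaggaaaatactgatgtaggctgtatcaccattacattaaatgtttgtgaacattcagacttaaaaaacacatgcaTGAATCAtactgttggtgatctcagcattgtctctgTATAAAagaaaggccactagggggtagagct

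Of the 9 genes, MMP7, MMP20, MMP27, MMP8 and MMP10 had a promoter entry and MMP1, MMP3, MMP12 and MMP13 had none. Motif letters were searched on both strands of the 250 bases. The letters TGANTCA, searched for AP-1 with any base at N, were in 3 of the 5 promoters (MMP7, MMP20 and MMP10). They were in 6.57% of all 35116 promoters of the table. The match was TGAGTCA in MMP7 and TGAATCA in MMP20 and MMP10, and the share covers every base at N. These matches began 67 bases before the start in MMP7 and 67 bases before it in MMP10, and 112 bases before it in MMP20. PEA3/ETS letters, AGGAAG, were in MMP7 only, at 2 places on the opposite strand that begin 169 and 145 bases before the start, against 28.7% of all promoters. The TATA box letters TATAAA were in 4 of the 5 (MMP7, MMP20, MMP8 and MMP10), against 10.7% of all promoters. The TEAD letters GGAATG, through whose factors YAP1 acts on DNA, were in 0 of the 5 windows and in 11.9% of all promoters. None of the motif matches shared bases with another. Such a match is a description of letters in these windows, and the search says nothing of binding.

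In shCON cells the cluster was weakly expressed and its reads lay mainly on MMP13 and MMP7. In shZDHHC15 cells MMP13 was 44.8 times as high, MMP1 was 5.48 times and MMP7 was 4.0 times as high by the fitted fold changes, while MMP3, MMP10 and the other 4 genes stayed within low counts. Of the 9 genes 5 passed the filter on low counts, and no calls are given for them. Of the 15817 genes tested 21.7% were called higher and 20.3% were called lower. All 5 tested members had shZDHHC15 samples above both shCON samples, as 37.2% of the genes tested did. Nothing is read from these counts, since the same contrast chose the members.

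**Figure D1:**
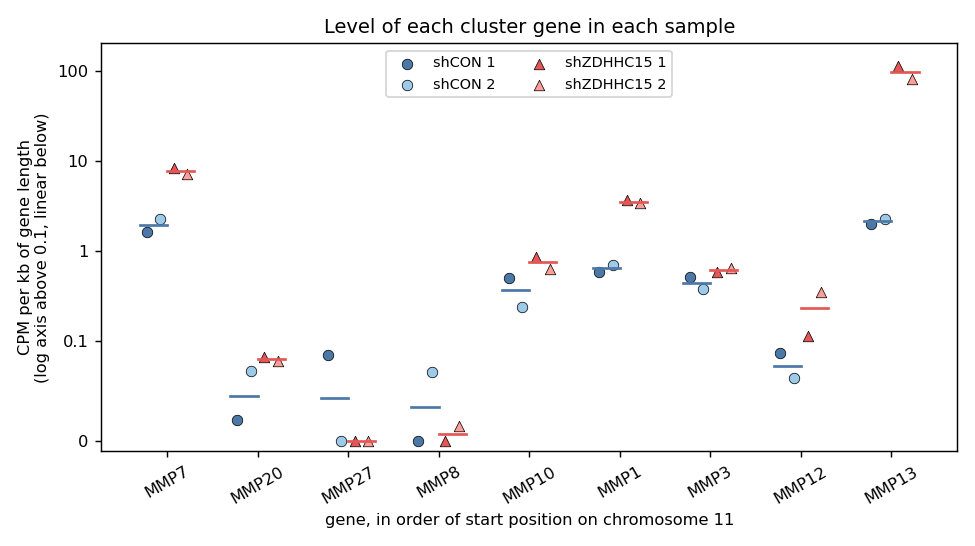
CPM per kb of gene length (TMM-scaled; logarithmic axis above 0.1, linear below) for each of the 9 genes in order of start position, with circles for the 2 shCON samples, triangles for the 2 shZDHHC15 samples and a short line for each group mean. MMP13 moved from between 1.99 and 2.28 to between 79.8 and 111, and MMP27 and MMP8 stayed at or near 0.

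MMP13 encodes collagenase 3, which cleaves type II collagen with preference among the fibrillar collagens. It received 103 and 109 counts in shCON and 5879 and 4437 in shZDHHC15. Scaled to effective library size these were 5.65 and 6.46 CPM against 315.8 and 226.1. The shZDHHC15 samples lay far above both shCON samples, and the spread between them was wider than in shCON. The means were 6.06 ± 0.574 and 271 ± 63.4 CPM (SD, n = 2 each), and the log2 fold change was 5.48 with a standard error of 0.175. Set against the shCON mean, the 2 shZDHHC15 samples gave log2 values of 5.70 and 5.22. Of the 15817 genes tested 17, MMP13 included, had a fold change at least as large, which is 0.107%. The members were selected on this same contrast, so this share only describes the place of MMP13 and is no test.

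MMP1 encodes interstitial collagenase, which opens type I and type III collagen. Its counts were 21 and 23 in shCON and 134 and 130 in shZDHHC15. Both groups were tight and apart, at 1.26 ± 0.15 and 6.91 ± 0.406 CPM (SD, n = 2 each). The log2 fold change was 2.45 with a standard error of 0.268. MMP8, the collagenase of neutrophil granules, received 0 and 4 counts in shCON and 0 and 1 in shZDHHC15, and was not tested. The 3 collagenase genes thus ran from the highest member of the cluster to a gene at the limit of detection.

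MMP7 encodes matrilysin, which besides matrix proteins sheds cell surface proteins such as E-cadherin and syndecan-1. It received 68 and 89 counts in shCON and 361 and 325 in shZDHHC15. The groups did not overlap, with means of 4.50 ± 1.09 and 18.0 ± 2.00 CPM (SD, n = 2 each). The log2 fold change was 2.00 with a standard error of 0.192, and the 2 shZDHHC15 samples gave 2.11 and 1.88 over the shCON mean. MMP7 is the member nearest to YAP1 and, by level per length, came next after MMP13 in both groups.

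The stromelysin genes MMP10 and MMP3 encode proteases of broad substrate range that can also cut the propeptides of collagenases. MMP10 received 16 and 7 counts in shCON and 28 and 22 in shZDHHC15, and MMP3 received 19 and 13 against 22 and 26. For MMP10 the means were 0.646 ± 0.327 and 1.31 ± 0.271 CPM (SD, n = 2 each), and the log2 fold change was 0.99 with a standard error of 0.457. For MMP3 they were 0.906 ± 0.192 and 1.25 ± 0.101 CPM (SD, n = 2 each), and the log2 fold change was 0.46 with a standard error of 0.401. The samples of the 2 groups did not overlap for either gene.

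The other members had at most 4 counts in a sample, except MMP12 in shZDHHC15 replicate 2. MMP12 received 3 and 2 counts in shCON and 4 and 13 in shZDHHC15, so that its higher group rested mainly on shZDHHC15 replicate 2. MMP20 received 1 and 3 counts in shCON and 4 in each shZDHHC15 sample. MMP27, a metalloproteinase of little known function, received 3 and 0 counts in shCON and 0 in both shZDHHC15 samples. A difference was not detectable for MMP27 and MMP8 at this depth, and both groups of MMP27 lay at or under the floor of 3 counts.

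The counting error of each gene was taken from its summed counts in the 2 groups, scaled by effective library size. The exact 95% intervals cover counting error only. The ratio of shZDHHC15 to shCON was 44.7 for MMP13 (39.0 to 51.4), 5.51 for MMP1 (3.99 to 7.76) and 4.01 for MMP7 (3.37 to 4.80). The intervals of MMP1 and MMP7 overlapped each other. The members were chosen on this same contrast and samples varied beyond counting error, so no interval here is read as a test against 1. For MMP10 the ratio was 2.00 (1.20 to 3.43) and for MMP12 3.12 (1.11 to 10.8), with lower bounds just above 1. For MMP3 it was 1.38 (0.862 to 2.23), for MMP20 1.84 (0.492 to 8.33) and for MMP8 0.229 (0.00466 to 2.32), all with 1 inside the interval.

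Levels were compared between genes per kb of gene length. In shCON the order was MMP13 at 2.14 ± 0.203 CPM per kb, MMP7 at 1.94 ± 0.471, MMP1 at 0.638 ± 0.0760, MMP3 at 0.443 ± 0.0937 and MMP10 at 0.368 ± 0.186 (SD, n = 2 each). MMP13 and MMP7 overlapped, as did MMP3 and MMP10, while MMP7 was apart from MMP1 and MMP1 from MMP3. MMP12, MMP20, MMP27 and MMP8 followed, below 0.1 CPM per kb and overlapping from each gene to the next.

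In shZDHHC15 MMP13 stood alone at 95.6 ± 22.4 CPM per kb. MMP7 followed at 7.74 ± 0.862, MMP1 at 3.51 ± 0.206, MMP10 at 0.746 ± 0.154 and MMP3 at 0.612 ± 0.0494 (SD, n = 2 each). MMP10 and MMP3 overlapped again and changed places with each other. Every other neighbour in the order was apart down to MMP8 and MMP27, which overlapped at or near 0. In shZDHHC15 MMP12 had 4 and 13 counts and MMP20 had 4 and 4, near the floor of 3 counts. The order from MMP12 down was therefore not resolved. Among 19951 protein-coding genes ranked by CPM per kb in each sample, MMP13 held places 8833 and 8399 in shCON and 311 and 498 in shZDHHC15. MMP7 went from places 9326 and 8410 to 4905 and 5400, and MMP1 from 11018 and 10712 to 7600 and 7758.

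The composition of the cluster's reads followed MMP13. All 9 genes together received 234 and 250 counts in shCON and 6432 and 4958 in shZDHHC15. MMP13 took 44.0% (95% Wilson interval 37.8 to 50.4) and 43.6% (37.6 to 49.8) of these in shCON. In shZDHHC15 it took 91.4% (90.7 to 92.1) and 89.5% (88.6 to 90.3), apart from both shCON samples. These intervals cover counting error only, and the samples of a group varied beyond it. The share of MMP7 was 29.1% and 35.6% in shCON and 5.61% and 6.56% in shZDHHC15, although its own level was higher there. Without MMP13 the cluster summed to 7.19 and 8.36 CPM in shCON and to 29.7 and 26.5 CPM in shZDHHC15. Most of the shZDHHC15 sum was MMP7, at 19.4 and 16.6 CPM, and MMP1, at 7.20 and 6.62 CPM.

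**Figure D2:**
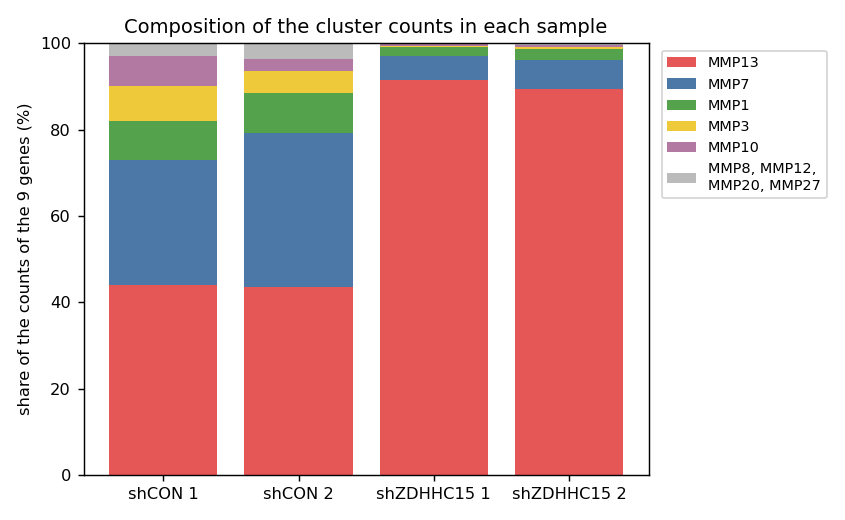
Share of the summed counts of the 9 genes, in percent, that lay on each gene in each of the 4 samples, as stacked bars that add to 100. The MMP13 part filled 44.0% and 43.6% of the shCON bars and 91.4% and 89.5% of the shZDHHC15 bars.

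The fold changes did not run evenly along the cluster. By the log2 values given above, MMP7 at the YAP1 end had 2.00, MMP1 and MMP13 farther away had 2.45 and 5.48, and MMP10 and MMP3, which lie on either side of MMP1, had 0.99 and 0.46. MMP20, MMP27, MMP8 and MMP12 lie between MMP7 and MMP13 and were not tested. To set the cluster beside its surroundings, the 45 other genes that start or end within 1 Mb of it were taken. Of these 10 passed the filter on low counts, 5 rose and 3 fell, beside 21.7% of all genes tested that were called higher and 20.3% called lower. The 35 others had at most 5 counts in a sample, 23 of them with 0 in every sample.

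**Figure D3:**
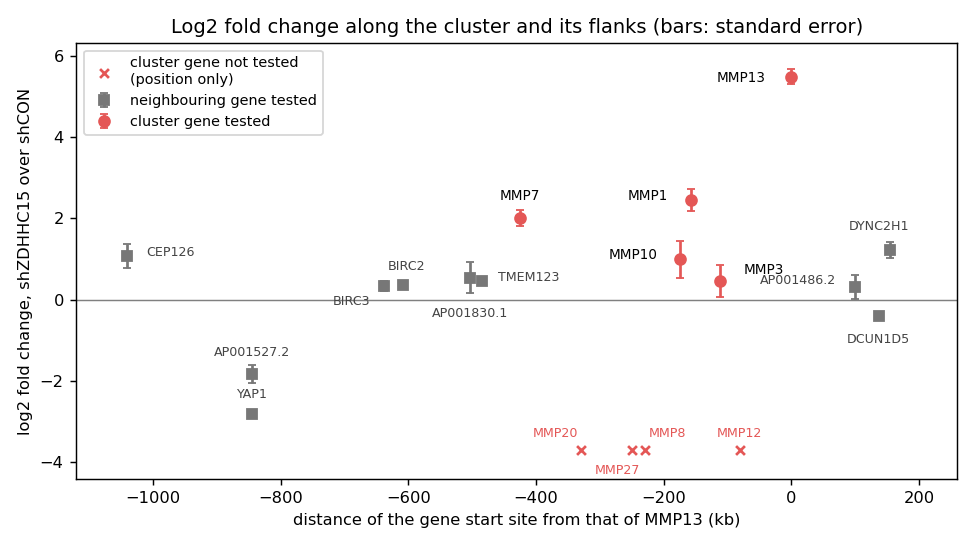
Log2 fold change of shZDHHC15 over shCON, with its standard error as bars, against the distance in kb of each gene's start site from that of MMP13. Red circles are the 5 tested members, grey squares the 10 tested neighbours and crosses the positions of the 4 members not tested, placed at the foot with no value; MMP13 lies at 5.48, the neighbours between -2.81 and 1.22.

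YAP1 fell by 2.81 on the log2 scale, from 7764 and 7011 counts to 1024 and 1272 (standard error 0.105, edgeR adjusted p = 4.30e-11). The lincRNA AP001527.2 lies on the minus strand from 102109827 to 102110457, so its start is next to the YAP1 start at 102110461. AP001527.2 fell by 1.82, from 166 and 149 counts to 52 and 45 (standard error 0.218, edgeR adjusted p = 1.25e-05). YAP1 and AP001527.2 thus moved opposite to the described differences of MMP7, MMP1 and MMP13. By CPM per kb YAP1 held places 670 and 745 among protein-coding genes in shCON and 4753 and 4198 in shZDHHC15, where MMP13 was above it and MMP7 below.

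Between YAP1 and MMP7 lie BIRC3 and BIRC2, which encode inhibitors of apoptosis, and TMEM123, a transmembrane mucin-like gene. BIRC2 rose by 0.37 (standard error 0.0912, edgeR adjusted p = 0.00489) and TMEM123 rose by 0.46 (standard error 0.0952, edgeR adjusted p = 0.00137). For BIRC2 the log2 fold change ran from 0.32 to 0.44 over 12 alternative analyses. BIRC3 rose by 0.34 (standard error 0.125, edgeR adjusted p = 0.0373), a call that was lost in 5 of 12 alternative analyses. AP001830.1, which shares 126 exonic bases with TMEM123 on the opposite strand, had a log2 fold change of 0.54 that did not pass (edgeR adjusted p = 0.285).

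Past MMP13, DYNC2H1, a motor subunit of transport in cilia, rose by 1.22, from 73 and 67 counts to 174 and 181 (standard error 0.195, edgeR adjusted p = 1.75e-04). DCUN1D5, a cullin neddylation cofactor, fell by 0.39 (standard error 0.0894, edgeR adjusted p = 0.00257). AP001486.2 had a log2 fold change of 0.30 that did not pass (edgeR adjusted p = 0.438). On the far side of YAP1, CEP126, a centrosomal gene, rose by 1.07, from 35 and 22 counts to 66 and 65 (standard error 0.298, edgeR adjusted p = 0.00945). The log2 fold change of CEP126 ran from 0.82 to 1.36 over the 12 alternative analyses. The median over the 10 tested neighbours was 0.36 beside 0.02 over all genes tested, and 0.22 without shCON replicate 2. Without that sample, and likewise without shZDHHC15 replicate 1, only 3 neighbours in place of 5 were called higher.

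The 5 genes whose pattern over the 4 samples was closest to that of MMP13, by Euclidean distance between centred log2 CPM values, were XAF1 at 0.30, AKR1C2 at 0.333, IFI44L at 0.352, NOS2 at 0.380 and OAS2 at 0.392. None of them lies on chromosome 11. XAF1, IFI44L and OAS2 are known as interferon-stimulated genes, AKR1C2 is a steroid reductase with near-identical paralogs and NOS2 is the inducible nitric oxide synthase. By the same measure MMP1 came 203rd at 3.09, MMP7 304th at 3.47, MMP10 1443rd and MMP3 3791st. The other 4 members were not ranked, since they did not pass the filter on low counts. NOS2 had 1 and 1 counts in shCON, under the floor of 3 counts, and its log2 fold change of 6.77 was above that of MMP13. XAF1 had 10 and 10 counts in shCON. The log2 CPM values held a prior count of 2, so the distances of genes with such low counts are uncertain. The measure also carries the size of the change and rests on 4 samples.

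Outside the cluster 14 other matrix metalloproteinase genes were listed, of which 7 were tested and 1 rose. This was the gelatinase gene MMP2, which rose by 0.80, from 414 and 357 counts to 716 and 742 (standard error 0.119, edgeR adjusted p = 9.10e-05), while MMP9 had 23 and 13 counts against 10 and 8 and did not pass (edgeR adjusted p = 0.0864). The median over these 7 genes was 0.00. Of all genes tested 21.7% were called higher and 20.3% lower, and this list and those below were chosen with earlier results known. Without shCON replicate 1 this list had 3 calls, 2 of them lower.

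Of 6 inhibitor genes 3 were tested and 1 fell, where 20.3% of all genes tested were called lower. TIMP1 had 952 and 945 counts in shCON and 785 and 895 in shZDHHC15 and fell by 0.30 (standard error 0.108, edgeR adjusted p = 0.0357), a call that was lost in 6 of 12 alternative analyses, with library size scaling and without shCON replicate 2 or either shZDHHC15 sample among them. TIMP2 differed by -0.18 (edgeR adjusted p = 0.137) and RECK, a membrane-anchored inhibitor, by -0.14 (edgeR adjusted p = 0.634). TIMP3 had 1 count in a sample of each group and TIMP4 had 1 count in all. The log2 differences of the 3 tested inhibitor genes thus lay between -0.30 and -0.14.

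Of 11 genes for activators of the zymogens 8 were tested, 2 rose and 4 fell. The shares over all genes tested were 21.7% higher and 20.3% lower. PLAT, tissue plasminogen activator, rose by 1.80 (standard error 0.111, edgeR adjusted p = 1.09e-08) and the serine protease gene TMPRSS2 by 1.45 (standard error 0.191, edgeR adjusted p = 3.05e-05). PLAU, the urokinase gene, fell by 0.93 (standard error 0.125, edgeR adjusted p = 3.86e-05) and the cathepsin gene CTSB by 0.64 (standard error 0.0881, edgeR adjusted p = 4.49e-05). The list moved in both directions, with a median of -0.24.

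All 23 genes for factors that bind metalloproteinase promoters were tested, and 6 rose and 10 fell. Over all genes tested 21.7% were called higher and 20.3% lower. CEBPB rose by 0.89 (standard error 0.0872, edgeR adjusted p = 1.66e-06) and STAT3 by 0.73 (standard error 0.0878, edgeR adjusted p = 1.29e-05). Over the 12 alternative analyses the log2 fold change ran from 0.81 to 0.97 for CEBPB and from 0.68 to 0.80 for STAT3. LEF1 rose by 1.09 on 25 and 11 counts against 38 and 46 (standard error 0.379, edgeR adjusted p = 0.0306), a call lost in 4 of 12 alternative analyses. ATF3 fell by 1.69 (standard error 0.10, edgeR adjusted p = 7.10e-09) and the AP-1 gene FOSL1 by 1.20 (standard error 0.140, edgeR adjusted p = 9.57e-06). Among the other AP-1 genes JUN, JUNB and JUND also fell, FOSL2 rose by 0.24 with a call that was lost in 8 of 12 alternative analyses, and FOS and FOSB did not pass. For JUNB the log2 fold change ran from -0.43 to -0.26 over these analyses. The median was 0.09, and the number that rose was 3 without shCON replicate 2 and 3 without shZDHHC15 replicate 2.

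Of 13 genes for inducing ligands 10 were tested, 1 rose and 3 fell, beside 21.7% called higher and 20.3% lower over all genes tested. IL1B, the interleukin-1 beta gene, rose by 1.91, from 49 and 56 counts to 165 and 268 (standard error 0.250, edgeR adjusted p = 2.84e-05). TGFB2 fell by 1.35 (standard error 0.123, edgeR adjusted p = 8.19e-07) and TGFA by 1.07 (standard error 0.130, edgeR adjusted p = 1.41e-05). LIF fell by 0.60 (standard error 0.116, edgeR adjusted p = 7.83e-04), and without shZDHHC15 replicate 2 the list had 5 falls.

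Of 15 substrate genes 10 were tested and 7 rose, where 21.7% of all genes tested were called higher. The basement membrane collagen gene COL4A1 rose by 2.89, from 23 and 12 counts to 132 and 153 (standard error 0.292, edgeR adjusted p = 2.25e-06), and COL4A2 by 1.17 (standard error 0.310, edgeR adjusted p = 0.00740). Over the 12 alternative analyses the log2 fold change ran from 0.86 to 1.42 for COL4A2 and from 0.33 to 0.58 for FN1. TNC, FN1, LAMA3, COL1A1 and SDC1 also rose, with the call of COL1A1 lost in 4 and that of SDC1 in 3 of 12 alternative analyses, and the median of the list was 0.52. Without shZDHHC15 replicate 1 the number that rose was 3. Over all 82 companion genes 61 were tested, 17 rose and 18 fell, beside the 42% of all tested genes that were called in either direction.

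**Figure D4:**
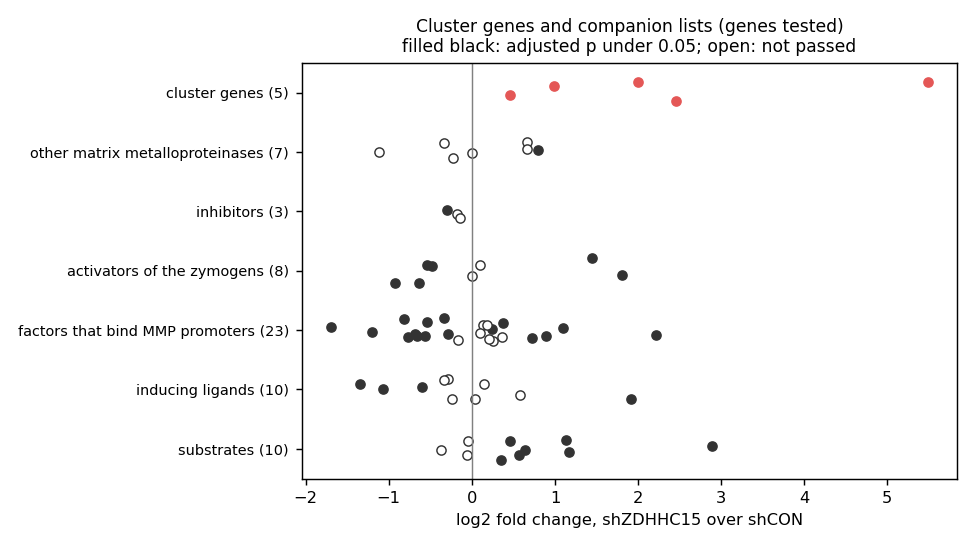
Log2 fold change of shZDHHC15 over shCON for the tested genes of each list, with the number tested in parentheses, spread vertically within a list for legibility. Red points are the 5 tested members of the cluster, filled black points passed an adjusted p of 0.05 and open points did not; MMP13 at 5.48 lies above every listed gene, of which COL4A1 at 2.89 is the highest.

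Markers of the cell types in which these enzymes are otherwise known were read beside the cluster. All 6 epithelial markers were present in every sample, and their sum was between 13409 and 14034 CPM by library size in shCON and between 8173 and 8179 in shZDHHC15. The difference lay mainly on KRT8, with 105283 and 106976 counts in shCON and 34507 and 40916 in shZDHHC15, and on KRT18, with 28599 and 28923 against 9554 and 11445. CDH1 had 6892 and 5950 counts against 6712 and 6814, and KRT19 had 343 and 339 against 503 and 506. The 6 fibroblast markers summed to between 5.73 and 6.89 CPM in shCON and to between 8.79 and 11.8 in shZDHHC15, nearly all of it COL1A1, with LUM at 0 in all samples. The 5 macrophage markers summed to between 11.1 and 13.3 CPM in shCON and to between 8.24 and 9.10 in shZDHHC15, with MRC1 at 0. These markers did not move together: CSF1R had 153 and 177 counts in shCON against 68 and 105 in shZDHHC15. CD14 had 9 and 5 against 25 and 22, and MARCO had 44 and 51 against 56 and 47. The 5 neutrophil markers had between 1 and 6 counts in a sample, with MPO, ELANE and CEACAM8 at 0, and the leukocyte gene PTPRC had between 1 and 4. The genes KRT8, KRT18 and COL1A1 thus carried most of the differences in the epithelial and fibroblast sums, and their part in the differences of the cluster was not tested. In bulk RNA of this kind a larger number of cells expressing a gene and more RNA per cell cannot be told apart.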

How the data were processed

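RNA of HCC1954 cells was analysed in 2 shCON and 2 shZDHHC15 samples, grouped by their labels. The authors deposited a table of raw counts of reads per gene, not normalized, beside gene coordinates, lengths and biotypes. The submitters' processing notes name HISAT2, SAMtools, StringTie and the hg38 build without roles or versions, and libraries were made with the NEBNext Ultra kit. All 58735 gene identifiers matched GENCODE 29 in start and end. Each of the 4 count columns entered the analysis, and the number of per-sample columns not used was 0.

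The members and gene lists were chosen with earlier results of these data known. Counts were tested over the whole table with edgeR 4.0.16 in R 4.3.3: filterByExpr (15817 genes), TMM factors, glmQLFit and glmQLFTest, and Benjamini-Hochberg adjustment over all genes tested, with calls at an adjusted p under 0.05. Levels are TMM-scaled counts per 1000000 (CPM). The test was checked on simulated data with 200 changed genes. In these data 6644 genes were called, so that check did not cover a change this wide. Depth and the floor of 3 counts are given with the results.

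Named genes were all 9 members, every neighbour that passed the filter, the 2 largest called rises and falls of each list, TIMP1 to TIMP4 and RECK, the 5 genes nearest to MMP13, YAP1 and ZDHHC15. CEBPB, STAT3, JUN, JUNB, JUND, FOSL2, FOS, FOSB, LIF, MMP9, TNC, FN1, LAMA3, COL1A1 and SDC1 were named after their values were seen. A gene that this rule names is not reported here. A planned comparison of protein sequences was replaced by coding sequences of GENCODE 29 transcripts, aligned with Biopython 1.88, a choice made after the files were seen. Alternatives were other scalings, DESeq2 1.42.0, other filters, the older quasi-dispersion of edgeR, a replicate block, leaving out each sample and a 100-base promoter window.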

Additional observations from a re-analysis of the deposited data

How the results depend on the processing

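With 2 samples a group, leaving out a sample left 1 residual degree of freedom, and the lone sample was assumed to vary like the other group. Over the 12 alternative analyses the log2 fold changes ran from 1.74 to 2.25 for MMP7, 2.30 to 2.57 for MMP1, 5.22 to 5.70 for MMP13, 0.26 to 0.67 for MMP3 and 0.56 to 1.61 for MMP10, which was not tested under a minimum of 10 counts per sample. All these extremes came from leaving out a sample, and the ranges lend the selected members no independent support. The block by replicate number gave 7225 called genes in place of 6644. The deviations of equally numbered samples correlated at 0.03, so the numbers were not shown to pair the samples, and the block raised the calls among the other matrix metalloproteinases from 1 to 2. Between 4725 and 6882 genes were called when a sample was left out. Without a filter, over 30168 genes, 2282 were called higher in place of 3427.

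The MMP13 share became 37.3% in shCON and 87.9% in shZDHHC15 when counts were divided by gene length, and no PEA3/ETS match was within 100 bases of a start (0 in place of 1). AP001486.2 (-0.0021 to 0.67) and RECK (-0.38 to 0.070) changed sign when a sample was left out. Leaving out a sample gave between 3 and 8 calls among substrates, 1 and 3 among other matrix metalloproteinases and 0 and 1 among inhibitors. The inhibitor list had 0 calls with library size scaling, DESeq2 or no filter, and 3 factor genes in place of 6 rose with DESeq2 or no filter. Counts under about 10 a sample limit what can be said of MMP20, MMP27, MMP8 and MMP12.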
